A study of Rattus norvegicus with 7 samples.

Results

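The 10 genes described here belong to the basement membrane and were measured in rat lung: Col4a1 and Col4a2 (collagen IV), Col15a1 and Col18a1 (collagens XV and XVIII), Lamb1, Lamb2 and Lamc1 (laminin chains), Nid1 and Nid2 (nidogens), and Hspg2 (perlecan). They were taken by symbol, as every probe set whose only gene symbol in the platform annotation was one of the 10, which gave 15 of the 31042 probe sets that were not array controls. The 4 lungs called HSU_Sor came from rats given hypoxia, SU-5416 and sorafenib, and the 3 called HSU from rats given hypoxia and SU-5416. Both groups were Dahl Salt Sensitive rats, an inbred strain prone to hypertension, in air with an inspired oxygen fraction of about 9.5%, and RNA was taken at 3.5 weeks. SU-5416 blocks VEGF receptors and, with hypoxia, gives rats a severe pulmonary hypertension. Sorafenib is an inhibitor of several kinases, among them RAF, VEGF receptors and PDGF receptors. Neither drug's dose nor the rats' age is given in the sources used here. Because both groups had hypoxia and SU-5416, the comparison is of sorafenib added to them, and normoxic lungs were not analysed here. Each array held total RNA of a whole perfused right lung, so cells of every kind were mixed, and fewer cells of a type and less RNA per cell cannot be told apart. Nothing in the labels states that each array is a separate animal, so the p-values measure the spread between these samples.

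A basement membrane is the thin sheet of matrix under endothelium and epithelium and around smooth muscle, pericytes and fat cells. Laminins, trimers of an alpha, a beta and a gamma chain, form a first polymer bound to cell-surface integrins and dystroglycan. Collagen IV forms a second, crosslinked network, and nidogens and the heparan sulfate proteoglycan perlecan link the networks. In the lung the alveolar wall holds a fused sheet of this kind between capillary endothelium and alveolar epithelium, and small vessels have sheets around their endothelium and muscle.

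Col4a1 and Col4a2 lie head to head and share a promoter, which is shown because the values of these genes are set against each other below. In RefSeq (build GRCr8) Col4a1 starts at base 84885597 of chromosome 16 on the plus strand and Col4a2 at base 84885520 on the minus strand, 77 bases away. The promoter windows, from 250 bases before to 50 after each start, overlap by 176 bases. Windows were found for 8 of the 10 genes. Lamb2 and Nid2 had no entry. Those of Lamb1 and Nid1 are shown as genes that were lower with sorafenib and that of Hspg2 as one whose difference was near 0. Capitals mark the GC box GGGCGG and the CCAAT box on either strand (CCGCCC and ATTGG on the other).
Col4a1, chr16:84885347-84885646, plus strand: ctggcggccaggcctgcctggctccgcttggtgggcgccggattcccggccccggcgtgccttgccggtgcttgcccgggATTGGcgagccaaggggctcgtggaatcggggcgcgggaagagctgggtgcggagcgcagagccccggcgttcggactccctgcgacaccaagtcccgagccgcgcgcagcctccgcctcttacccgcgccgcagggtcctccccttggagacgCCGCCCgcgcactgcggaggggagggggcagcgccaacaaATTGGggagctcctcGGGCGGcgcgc
Lamb1, chr6:53562846-53563145, plus strand: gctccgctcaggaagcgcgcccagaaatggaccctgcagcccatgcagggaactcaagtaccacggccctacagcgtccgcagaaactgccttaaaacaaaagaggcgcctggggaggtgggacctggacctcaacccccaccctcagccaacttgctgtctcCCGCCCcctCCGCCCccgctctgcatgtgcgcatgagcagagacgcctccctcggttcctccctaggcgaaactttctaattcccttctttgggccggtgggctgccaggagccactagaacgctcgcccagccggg
Nid1, chr17:93069036-93069335, plus strand: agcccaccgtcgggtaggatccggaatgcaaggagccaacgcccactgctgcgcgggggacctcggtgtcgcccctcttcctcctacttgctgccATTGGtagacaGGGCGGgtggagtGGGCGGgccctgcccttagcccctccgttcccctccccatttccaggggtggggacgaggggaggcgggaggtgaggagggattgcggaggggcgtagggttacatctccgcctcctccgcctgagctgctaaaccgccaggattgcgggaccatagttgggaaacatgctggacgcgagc
Hspg2, chr5:154960596-154960895, plus strand: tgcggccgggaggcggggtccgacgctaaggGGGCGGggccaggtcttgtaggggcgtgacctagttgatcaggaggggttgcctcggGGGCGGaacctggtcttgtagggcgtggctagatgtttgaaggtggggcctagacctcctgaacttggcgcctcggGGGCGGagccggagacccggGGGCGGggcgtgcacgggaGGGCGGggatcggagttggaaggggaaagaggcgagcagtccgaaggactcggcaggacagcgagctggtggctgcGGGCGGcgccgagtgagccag

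The windows were rich in G and C, from 55% of bases in Col15a1 to 75% in Col4a1. A GC box was present in 7 of 8 windows, all but that of Col15a1, against 33.1% of 33469 rat promoter windows of the same length. Both GC boxes of the Col4a1 window lie in its overlap with the Col4a2 window, so these windows hold the same boxes and are not separate members for that count. Hspg2 held the most, 6, and Lamc1 held 5. The CCAAT box was present in the windows of Col4a1, Col4a2 and Nid1, 3 of 8, against 37.5% of all windows, and the one in the Col4a2 window is again shared with Col4a1. Neither the TATA box letters TATAAA, found in 14.2% of all windows, nor the hypoxia response core ACGTG, found in 19.3%, was present in any of the 8. The CArG box of muscle genes was also in none of them, against 1.64% of all. These matches describe the letters only.

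The values were log2 expression values per probe set as deposited, and a gene was represented by its probe set with the highest mean. All 15 probe sets had a mean over the 7 arrays above the median of all probe sets (3.64), the filter that left 15521 probe sets for the fit. Each array's median lay between 3.59 and 3.68, and correlations between arrays ran from 0.984 to 0.992. Some arrays stood apart. HSU 1b and HSU 2b had an RT1-Bb probe set (1371065_at) at 12.57 on both, against 3.55 to 3.72 on the other 5 arrays. The gene's brighter probe set (1371033_at) did not show this. It was at 13.17 and 13.08 on HSU 1b and 2b, against 13.43 to 14.06 on the other 5. The 6 heart muscle markers above the filter (Mb, Myh6, Pln and Myl4 among them) were on average 1.87 and 1.19 above their 7-array mean on those same HSU arrays, against -1.05 to -0.12 on the HSU_Sor arrays and -0.93 on HSU 3b. Mb was at 6.88 and 5.59 on HSU 1b and 2b, against 2.57 to 2.64 on the other 5 arrays. It passed the filter only through HSU 1b and 2b, so its part in that average is no separate sign. Of the 10 heart muscle markers on the arrays, 4 were below the filter. Hbb, a globin of red cells, was low on HSU_Sor 3 and 4, at 12.11 and 11.59. Titles of all 3 HSU samples carry a letter b that no HSU_Sor title carries, so whatever the letter marks and the treatment cannot be told apart.

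Of the 10 genes 8 had a lower mean in lungs given sorafenib, against 53.5% of the 9299 genes tested, and no difference passed the test adjusted over all probe sets. Col18a1 was 1.95-fold lower, Lamb1 1.49-fold, Nid1 1.47-fold, Col4a1 1.39-fold and Lamc1 1.26-fold lower in HSU_Sor than in HSU lungs. At an unadjusted p below 0.05 (limma, two-sided), 5 of the 10 genes were lower and 0 higher, against 4.18% of 9299 genes lower and 2.69% higher. At an unadjusted p below 0.01 with a fold of at least 1.4, the lower genes were Col18a1, Lamb1 and Nid1, 3 of 10, against 0.667% of all genes. In 5 of 10 genes (Col15a1, Col18a1, Lamb1, Lamc1 and Nid1) the highest HSU_Sor value was under the lowest HSU value, against 3.74% of all genes. The median log2 difference of the 10 was -0.40, against -0.0066 over all genes. Of the 15 probe sets 8 were lower at an unadjusted p below 0.05 and 0 higher, against 3.67% and 2.33% of the 15521 tested. After Benjamini-Hochberg adjustment over the 15521 probe sets 0 of the 10 passed 0.05, with limma adjusted p from 0.534 to 0.959, and 0% of the whole table passed either (lowest adjusted p 0.15, with 931 probe sets at an unadjusted p below 0.05).

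**Figure D1:**
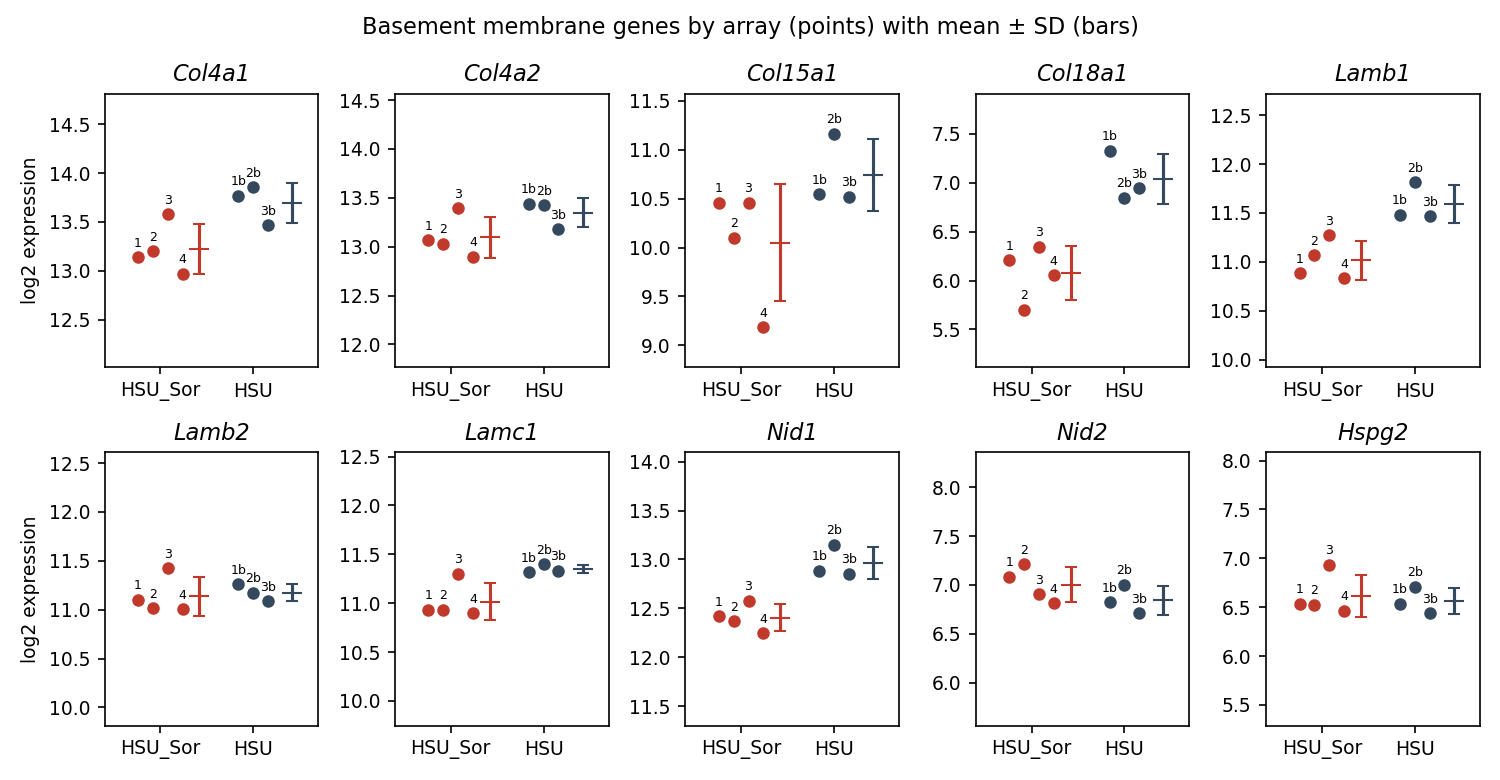
Log2 expression (vertical axis) of the 10 genes, each by its main probe set, with the 4 HSU_Sor arrays left of the 3 HSU arrays. Each point is 1 array, labelled with its number, and the bars are the group mean ± SD. Each panel has its own axis range. The groups do not overlap for Col15a1, Col18a1, Lamb1, Lamc1 and Nid1.

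Several of these counts rested on particular arrays. Without HSU 2b, 3 genes were lower at an unadjusted p below 0.05 and 1 at the stricter setting, and without HSU_Sor 3 these counts were 6 and 4. Of all probe sets 3.86% and 3.94% were lower at an unadjusted p below 0.05 (limma) in these fits. Without both HSU 1b and 2b, the arrays with the RT1-Bb and heart muscle values, HSU was left with 1 array, whose spread was taken to be that of the HSU_Sor arrays. The counts were then 2 (Col18a1 and Nid1) and 0, against 5.35% of all probe sets lower at an unadjusted p below 0.05, and the median was -0.28. Without HSU_Sor 3 and 4, those with low Hbb, the counts were 6 and 2 with a median of -0.44, and 1 gene, Nid2, was higher at an unadjusted p below 0.05. In that fit 1021 of 15521 probe sets had an unadjusted p below 0.05 (limma), 608 of them lower (3.92% of all). These shares are over probe sets while the counts are over genes. The share at the stricter setting was not counted in any of these fits, so the stricter counts have none beside them.

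Collagen IV is a trimer, and its commonest form has alpha-1 chains from Col4a1 and an alpha-2 chain from Col4a2. Col4a1 (1372439_at) was at 13.14, 13.20, 13.58 and 12.97 on HSU_Sor arrays 1 to 4, against 13.77, 13.86 and 13.46 on HSU arrays 1b, 2b and 3b. HSU_Sor 3 lay above HSU 3b, and the other HSU_Sor arrays lay below all HSU arrays. The log2 difference was -0.47 ± 0.16 (SE; 95% interval -0.87 to -0.08), with an unadjusted p of 0.0262 and a limma adjusted p of 0.812. Its other probe set (1373245_at) was at 12.59, 12.95, 12.94 and 12.69 in HSU_Sor, against 13.19, 13.24 and 12.94 in HSU. That difference was -0.33 ± 0.12 (SE), with a limma unadjusted p of 0.0318. Leaving out HSU_Sor 1, 2 or 4 or HSU 1b or 2b took the first probe set's unadjusted p above 0.05 (0.0556 to 0.0904), and without both HSU 1b and 2b its difference was -0.24.

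Col4a2 (1388494_at) was at 13.07, 13.03, 13.39 and 12.90 on the HSU_Sor arrays, against 13.44, 13.42 and 13.18 on the HSU arrays. As for Col4a1, HSU_Sor 3 overlapped the HSU range and the other 3 lay below it. The difference was -0.25 ± 0.13 (SE; interval -0.57 to 0.07), with a limma adjusted p of 0.874. It was -0.082 without HSU 1b and 2b. The mean log2 level of Col4a1 was 13.22 ± 0.26 in HSU_Sor and 13.70 ± 0.21 in HSU, and that of Col4a2 was 13.10 ± 0.21 in HSU_Sor and 13.35 ± 0.15 in HSU (SD, n = 4 and n = 3).

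Collagens XV and XVIII are related proteins with heparan or chondroitin sulfate chains that sit at the edge of basement membranes, and the C-terminal fragment of collagen XVIII is endostatin. Col18a1 (1388459_at) was at 6.21, 5.70, 6.35 and 6.05 in HSU_Sor, against 7.33, 6.85 and 6.94 in HSU. All HSU_Sor values were under all HSU values, with a gap between the groups. The difference was -0.96 ± 0.18 (SE; interval -1.41 to -0.52), with an unadjusted p of 0.00154 and a limma adjusted p of 0.534. With any 1 array left out it stayed between -1.06 and -0.82, and without HSU 1b and 2b it was -0.87. The dimmer probe set (1388143_at) was at 4.40, 4.84, 4.77 and 4.87 in HSU_Sor, against 5.80, 5.37 and 4.86 in HSU. HSU 3b there lay within the HSU_Sor range. The difference was -0.62 ± 0.23 (SE, limma unadjusted p 0.0337), -0.40 without HSU 1b and -0.14 without HSU 1b and 2b.

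Col15a1 (1388939_at) was at 10.46, 10.10, 10.46 and 9.19 in HSU_Sor, against 10.54, 11.17 and 10.52 in HSU. The groups did not overlap, but HSU_Sor 1 and 3 lay just under HSU 1b and 3b, and HSU_Sor 4 and HSU 2b were the far ends. The difference of -0.69 ± 0.35 (SE) had a limma unadjusted p of 0.0929. It was -0.40 without HSU_Sor 4 and -0.48 without HSU 2b. The second probe set (1379345_at) was at 9.56, 9.82, 9.58 and 8.29 in HSU_Sor, against 9.88, 11.16 and 9.78 in HSU, a difference of -0.96 ± 0.49 (SE, limma unadjusted p 0.0925). HSU_Sor 4 and HSU 2b were again lowest and highest, and the difference was -0.62 without HSU_Sor 4 and -0.52 without HSU 2b.

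**Figure D2:**
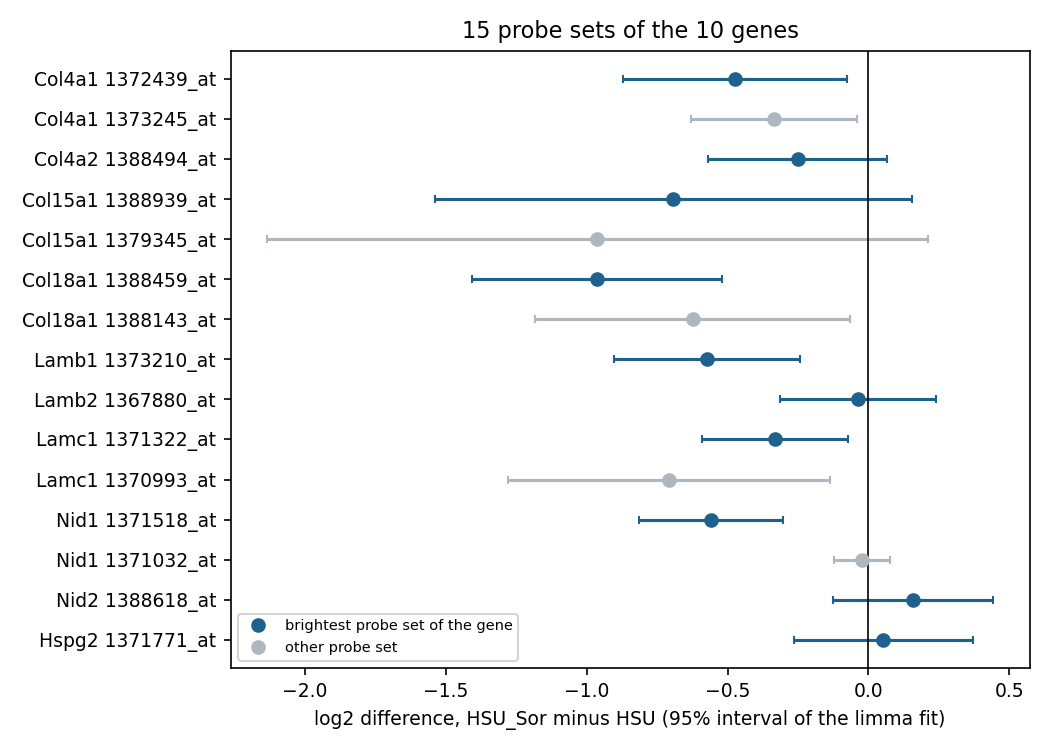
Log2 difference, HSU_Sor minus HSU (horizontal axis), of all 15 probe sets of the 10 genes, with 95% intervals from the limma fit over 15521 probe sets. The intervals of 8 probe sets of 5 genes lie below 0. Those of every Col4a2, Col15a1, Lamb2, Nid2 and Hspg2 probe set and of the dimmer Nid1 probe set hold 0.

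Lamb1 encodes the beta-1 chain and Lamc1 the gamma-1 chain, which is the gamma chain of most laminins. Lamb1 (1373210_at) was at 10.89, 11.07, 11.27 and 10.83 in HSU_Sor, against 11.48, 11.81 and 11.47 in HSU. All HSU_Sor arrays were below all HSU arrays. The difference was -0.57 ± 0.14 (SE; interval -0.90 to -0.24), with an unadjusted p of 0.00501 and a limma adjusted p of 0.597. It ranged from -0.66 to -0.46 with 1 array left out, and was -0.45 (unadjusted p 0.0771, limma) without HSU 1b and 2b.

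Lamc1 (1371322_at) was at 10.93, 10.93, 11.30 and 10.90 in HSU_Sor, against 11.31, 11.40 and 11.33 in HSU. The groups just failed to overlap, with HSU_Sor 3 next to HSU 1b. The difference was -0.33 ± 0.11 (SE; interval -0.59 to -0.07), with an unadjusted p of 0.0195 and a limma adjusted p of 0.787. Without HSU 2b its unadjusted p was 0.0618. A second probe set (1370993_at) was at 8.78, 9.55, 8.80 and 9.32 in HSU_Sor, against 9.89, 10.07 and 9.50 in HSU. Its difference was larger, -0.71 ± 0.24 (SE, limma unadjusted p 0.0224), and HSU_Sor 2 overlapped HSU 3b. That unadjusted p was between 0.0523 and 0.0805 without HSU_Sor 1 or 3 or HSU 1b or 2b, and the difference was -0.39 without both HSU 1b and 2b.

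Lamb2, the beta-2 chain found in vessel wall and synaptic basement membranes, was at 11.10, 11.02, 11.42 and 11.00 in HSU_Sor, against 11.26, 11.17 and 11.09 in HSU. The groups overlapped. The difference was -0.039 ± 0.12 (SE; interval -0.32 to 0.24), with a limma adjusted p of 0.959. The sign turned without HSU_Sor 2, HSU_Sor 4 or HSU 1b.

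Nidogens are rod-shaped glycoproteins that bind both the laminin gamma-1 chain and collagen IV. Nid1 (1371518_at) was at 12.42, 12.37, 12.58 and 12.25 in HSU_Sor, against 12.89, 13.15 and 12.85 in HSU. Its groups were apart, with HSU_Sor 3, the highest of its group, under HSU 3b, the lowest of its own. The difference was -0.56 ± 0.11 (SE; interval -0.82 to -0.30), with an unadjusted p of 0.00155 and a limma adjusted p of 0.534. It lay between -0.62 and -0.47 with 1 array left out and was -0.45 (unadjusted p 0.0311, limma) without HSU 1b and 2b. The other Nid1 probe set (1371032_at) lay at 4.20 to 4.29 on all arrays, a dim level at which differences may be compressed, and differed by -0.024.

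Nid2 (1388618_at) was at 7.08, 7.21, 6.91 and 6.82 in HSU_Sor, against 6.82, 7.002 and 6.71 in HSU. Its groups overlapped, and the difference was 0.16 ± 0.12 (SE; interval -0.12 to 0.44), with a limma unadjusted p of 0.222. It was 0.090 without HSU_Sor 2, 0.091 without HSU 3b and 0.30 without both HSU 1b and 2b. Without HSU_Sor 3 and 4 it was 0.30 with a limma unadjusted p of 0.0457 and an adjusted p of 0.726. With the replicate number as a block in the fit it was 0.22 (limma unadjusted p 0.0223, adjusted p 0.678). The rat annotation holds near copies of Nid2 (Nid2-ps16 and Nid2l2), so which copy this probe set reads is uncertain. Probe sets of those copies differed by -0.029 to 0.016. Hspg2 (1371771_at) encodes perlecan, the heparan sulfate proteoglycan that binds growth factors and nidogen. It was at 6.54, 6.53, 6.93 and 6.46 in HSU_Sor, against 6.54, 6.71 and 6.44 in HSU. Apart from HSU_Sor 3, its arrays lay in 1 narrow range, and the difference was 0.053 ± 0.13 (SE; interval -0.26 to 0.37; limma unadjusted p 0.701). It was -0.054 without HSU_Sor 3 and -0.0077 without HSU 3b.

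Within families, the differences of relatives were set against each other on each array, a comparison chosen after the values were seen. The Col4a1 minus Col4a2 log2 difference shifted by -0.22 in HSU_Sor relative to HSU, and its spread was small, with an SD of 0.063 in HSU_Sor and 0.076 in HSU. For Lamb1 minus Lamb2 the shift was -0.53 and for Nid1 minus Nid2 it was -0.72. In these 3 pairs the groups did not overlap, which gives an exact permutation p of 0.0571 (two-sided), the smallest that 35 splits of 4 and 3 arrays allow, and 0.0762 adjusted over the 4 pairs. For Col18a1 minus Col15a1 the groups overlapped, with a shift of -0.27 and an exact permutation p of 0.686. The design could not reach 0.05. Lamb1 and Nid1 were already known to be apart between the groups, so these p-values give no support of their own. Other gene pairs were not compared in this way, so no share over all pairs is given.

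**Figure D3:**
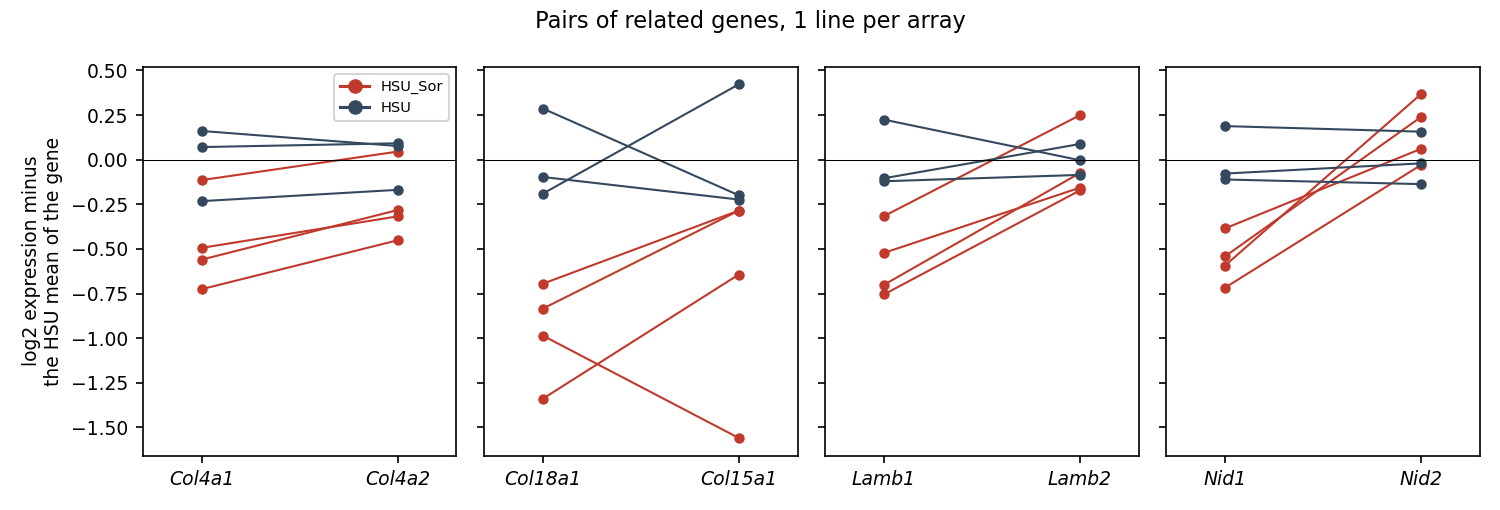
Log2 expression of the 2 genes of each pair on each array, minus that gene's HSU mean (vertical axis), with 1 line per array (4 HSU_Sor in red, 3 HSU in dark blue). In the collagen IV, laminin beta and nidogen pairs all HSU_Sor lines climb from the first gene to the second, and in the pair of Col18a1 and Col15a1 they go both ways.

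Inside each group the genes tended to share their highest and lowest arrays. HSU_Sor 3 was the highest of its group for 8 of the 10 genes and HSU_Sor 4 the lowest for 9 of 10, against 35% and 29.8% of all 9299 genes. Ties were counted for the first array, and HSU_Sor 1 and 3 tied as highest for Col15a1 (10.46). Among the HSU arrays, 2b was highest for 7 of 10 and 3b lowest for 8 of 10, against 33.4% and 26.7%. The mean deviation of the 10 genes from their HSU mean was -0.35, -0.42, -0.11 and -0.59 on HSU_Sor arrays 1 to 4, against 0.0075, 0.12 and -0.13 on HSU 1b, 2b and 3b. HSU_Sor 3 thus lay about where HSU 3b did. The number of genes below every HSU array was 7, 8, 5 and 8 of 10 on the 4 HSU_Sor arrays, against 27%, 31.3%, 25.9% and 30.5% of all 9299 genes. Within HSU_Sor, endothelial markers (14 genes, Vwf and Cldn5 among them) also lay highest relative to their 7-array mean on HSU_Sor 3 (0.15) and lowest on HSU_Sor 4 (-0.22). So did fibrillar collagens (0.11 and -0.33), other basement membrane genes (0.25 and -0.17), their receptors (0.054 and -0.14), fibroblast markers (-0.073 and -0.21) and cardiac markers (-0.12 and -1.05). Smooth muscle markers were lowest on HSU_Sor 2 (-0.40), and pericyte markers were highest on HSU_Sor 2 (-0.012). What these arrays share was not tested.

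Col4a1 was used as the pattern against which 9298 other genes were ranked, by the root mean square difference of their deviations over the 7 arrays. The nearest was Col1a1, a chain of the fibrillar collagen I, at 0.0907 log2 units, followed by Ddit4 at 0.0949 and Lamb1 at 0.111. Paqr6 (0.116), Retreg1 (0.119) and Nid1 (0.122) came next. Col4a2 was at rank 7 and Lamc1 at rank 14. Lamb2 and Hspg2 ranked 363 and 1017, and Col18a1, Col15a1 and Nid2 ranked 5784, 5976 and 6976. The measure takes in the size of a difference as well as its direction. Col18a1 (-0.96), lower like Col4a1 (-0.47), can therefore rank behind Lamb2 (-0.039) and Hspg2 (0.053). The likeness is a description over 7 arrays in which the group difference itself takes part.

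Other components of the basement membrane lay in both directions. Of 22 such genes on the arrays 14 passed the filter, with a median difference of -0.040. At an unadjusted p below 0.05, 2 were lower and 2 higher, against 4.18% and 2.69% of all genes tested. Smoc2, a secreted calcium-binding matrix protein, was 1.90-fold lower by its brightest probe set (-0.93 ± 0.20 SE, limma unadjusted p 0.00298). Its other probe sets lay below the filter and differed by -0.11 and -0.015. The secreted laminin relative Ntn1 was lower by 0.36. The higher genes were Lamb3 and Lama3, chains of the epithelial laminin that anchors epithelium. Lamb3 was at 11.43, 11.42, 11.73 and 11.58 in HSU_Sor, against 11.22, 11.27 and 10.90 in HSU, with no overlap (0.41 ± 0.12 SE, limma unadjusted p 0.0131). Lama3 was at 8.65, 9.21, 9.22 and 8.87 in HSU_Sor, against 8.29, 8.87 and 8.10 in HSU, and overlapped (0.57 ± 0.23 SE, limma unadjusted p 0.0444). Without HSU_Sor 3 and 4 the count of higher genes was 0. Without HSU 1b and 2b, 2 were lower and 3 higher, and the median turned to 0.042. None passed the adjusted test.

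Receptors that bind basement membranes also lay in both directions. Of 13 above the filter, 4 were lower and 2 higher at an unadjusted p below 0.05, against 4.18% and 2.69% of all genes tested. The median was -0.072. Without HSU 1b and 2b, 1 was lower and 2 higher, and leaving out HSU_Sor 3 with 4 gave 4 and 1 with a median of -0.024. The integrin chains Itga6 and Itga3 form laminin receptors. Itga6 was at 11.03, 10.98, 11.47 and 10.93 in HSU_Sor, against 11.50, 11.91 and 11.74 in HSU, with no overlap (-0.61 ± 0.16 SE, limma unadjusted p 0.00776). Itga3 was at 11.98, 11.92, 12.24 and 11.78 in HSU_Sor, against 11.69, 11.52 and 11.39 in HSU, with every HSU_Sor array above the HSU arrays (0.45 ± 0.12 SE, limma unadjusted p 0.0101). The cell-surface heparan sulfate proteoglycans Gpc1 (-0.63 ± 0.15 SE) and Sdc2 (-0.31 ± 0.082 SE) were lower. Gpc1 was dim, at 4.42 to 4.86 in HSU_Sor against 5.05 to 5.45 in HSU, and differences there may be compressed.

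Genes for the making and crosslinking of collagen were lower wherever they passed the unadjusted threshold. Of 18 above the filter, 8 were lower and 0 higher at an unadjusted p below 0.05, against 4.18% and 2.69% of all genes tested. The median was -0.24, and -0.35 without HSU 1b and 2b. The groups did not overlap in 6 lower genes and 1 higher gene, against 348 and 214 of all 9299 genes. Plod2, a lysyl hydroxylase that prepares collagen for crosslinks, was at 9.24, 9.11, 9.36 and 9.73 in HSU_Sor, against 10.62, 10.50 and 10.59 in HSU. This 2.31-fold lower level (-1.21 ± 0.15 SE) had a limma unadjusted p of 0.000111 and an adjusted p of 0.166. Loxl2, a lysyl oxidase that crosslinks collagen IV, was at 3.61, 4.05, 4.06 and 3.62 in HSU_Sor, against 4.47, 5.36 and 5.14 in HSU. HSU_Sor 1 and 4 lay under the filter value of 3.64, so the HSU_Sor level is dim and no fold is given. The fitted difference was -1.15 ± 0.24 (SE, limma unadjusted p 0.00246), and -0.71 over the mean of the gene's probe sets. The collagen chaperone Serpinh1 (-0.28 ± 0.096 SE) and the chaperone Hsp90b1 of the endoplasmic reticulum (-0.30 ± 0.099 SE) were lower by less.

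Among proteases and their inhibitors 4 of 11 were lower and 1 higher at an unadjusted p below 0.05, with a median of -0.20, and without HSU 1b and 2b the counts were 2 and 0. Over all 7 arrays 4.18% of all genes tested were lower and 2.69% higher at that threshold. The plasminogen activators differed in sign, Plat at -0.52 ± 0.10 (SE) and Plau at 0.48 ± 0.14 (SE), each with groups that did not overlap. The metalloproteinase inhibitor Timp1 was lower by 0.77 and the membrane-bound metalloproteinase Mmp14 by 0.35. Fibrillar collagens, which belong to the interstitial matrix and not to basement membranes, lay lower as well. At an unadjusted p below 0.05, 5 of 7 were lower and 0 higher, against the same 4.18% and 2.69% of all genes, with a median of -0.31. Col1a1 was at 12.64, 12.55, 12.93 and 12.44 in HSU_Sor, against 13.38, 13.22 and 12.93 in HSU (-0.54 ± 0.15 SE). Col1a2 (-0.32 ± 0.045 SE), Col5a2 (-0.31 ± 0.092 SE) and Col5a1 (-0.93 ± 0.30 SE) were lower too. Without HSU 1b and 2b, 1 of the 7 was lower at that threshold.

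**Figure D4:**
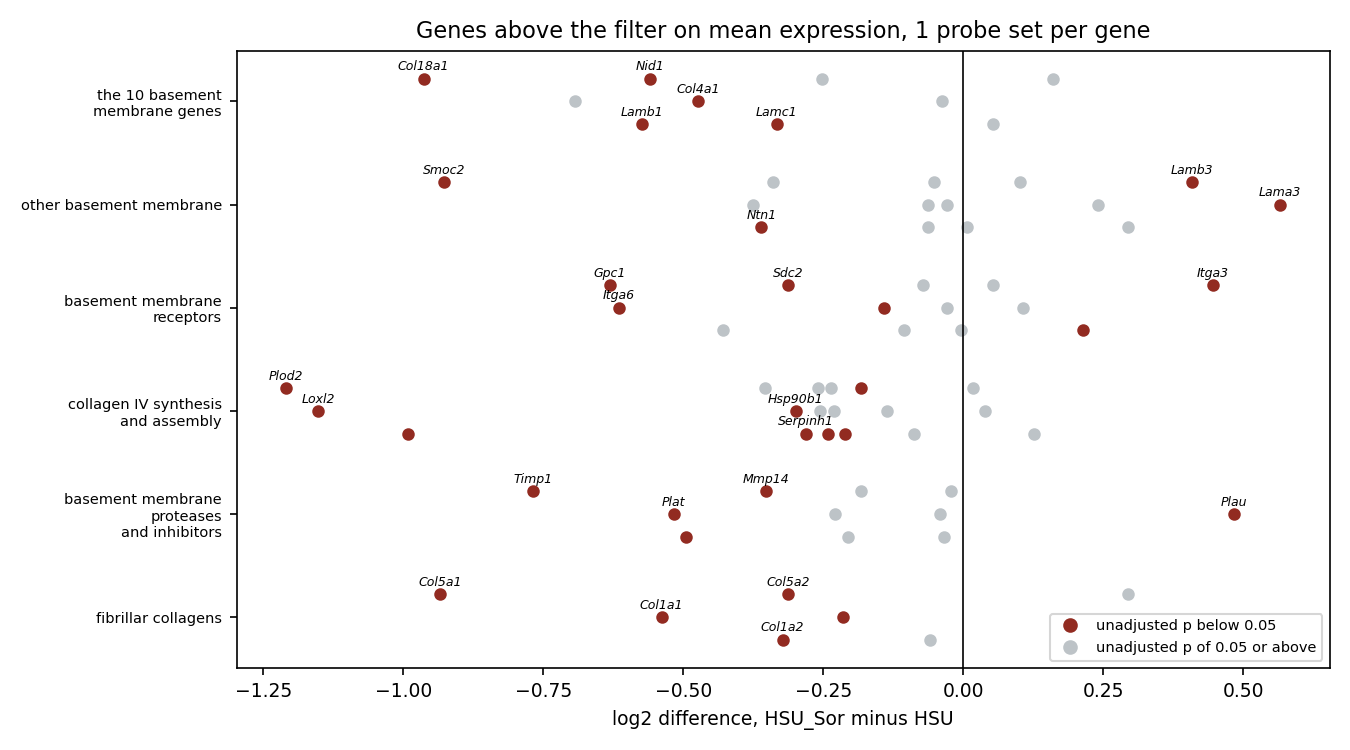
Log2 difference, HSU_Sor minus HSU (horizontal axis), of each gene above the filter, 1 point per gene and 1 band per list. Dark points have an unadjusted p below 0.05 in the limma fit, and the names are those given in the text. In the lists of the 10 genes, of collagen synthesis and of fibrillar collagens all dark points lie below 0, and in the other 3 lists they lie on both sides.

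Markers of the cell types in the lung were read beside these genes. Of all genes tested, 4.18% were lower and 2.69% higher at an unadjusted p below 0.05, the shares beside which the counts of each list stand. Smooth muscle markers were lower in 5 of 12 genes and higher in 0 at an unadjusted p below 0.05, with a median of -0.43, and in 4 without HSU 1b and 2b. Their summed level (log2) was 15.44 to 15.82 in HSU_Sor, against 16.05 to 16.23 in HSU. Actg2, an enteric smooth muscle actin, was at 12.06, 11.52, 12.02 and 12.06 in HSU_Sor, against 13.36, 13.51 and 13.22 in HSU. Pericyte markers were lower in 3 of 8 (Rgs5, Cspg4 and Higd1b), with a median of -0.47 and a summed level of 12.84 to 13.55 in HSU_Sor, against 13.47 to 13.70 in HSU, and Notch3 was below the filter. Without HSU 1b and 2b, 0 of these passed that threshold, and leaving out HSU_Sor 3 with 4 left 3 lower and 1 higher. Fibroblast markers were lower in 5 of 10 (Lum, Tcf21, Mfap5 and Thy1 among them), with a median of -0.32 and a summed level of 14.79 to 14.999 in HSU_Sor, against 15.18 to 15.26 in HSU. Leaving out HSU 1b with 2b made that count 1, and leaving out HSU_Sor 3 with 4 made it 2. Endothelial markers were lower in 0 of 14 and higher in 1, Vwf (0.41 ± 0.085 SE), with a median of -0.035 and a summed level of 16.14 to 16.49 in HSU_Sor, against 16.32 to 16.43 in HSU. The counts were 0 and 0 when HSU 1b and 2b were left out, and 1 and 1 when HSU_Sor 3 and 4 were. Alveolar epithelial markers were lower in 0 of 12 and higher in 1 (Aqp5, 0.29 ± 0.067 SE), with a median of -0.029 and a summed level of 17.88 to 18.03 in HSU_Sor, against 17.92 to 18.04 in HSU, and neither count was above 0 when HSU 1b and 2b were left out. Mesothelial markers had 0 of 5 in either direction at that threshold. Cardiac markers had a median of -1.18, which was 0.24 without HSU 1b and 2b, with a summed level of 9.64 to 10.98 in HSU_Sor, against 9.81 to 12.44 in HSU. Of the 10 cardiac markers on the arrays 4 were below the filter, and Mb passed it only through HSU 1b and 2b. The part of these cell types in the differences of the 10 genes was not tested.

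**Figure D5:**
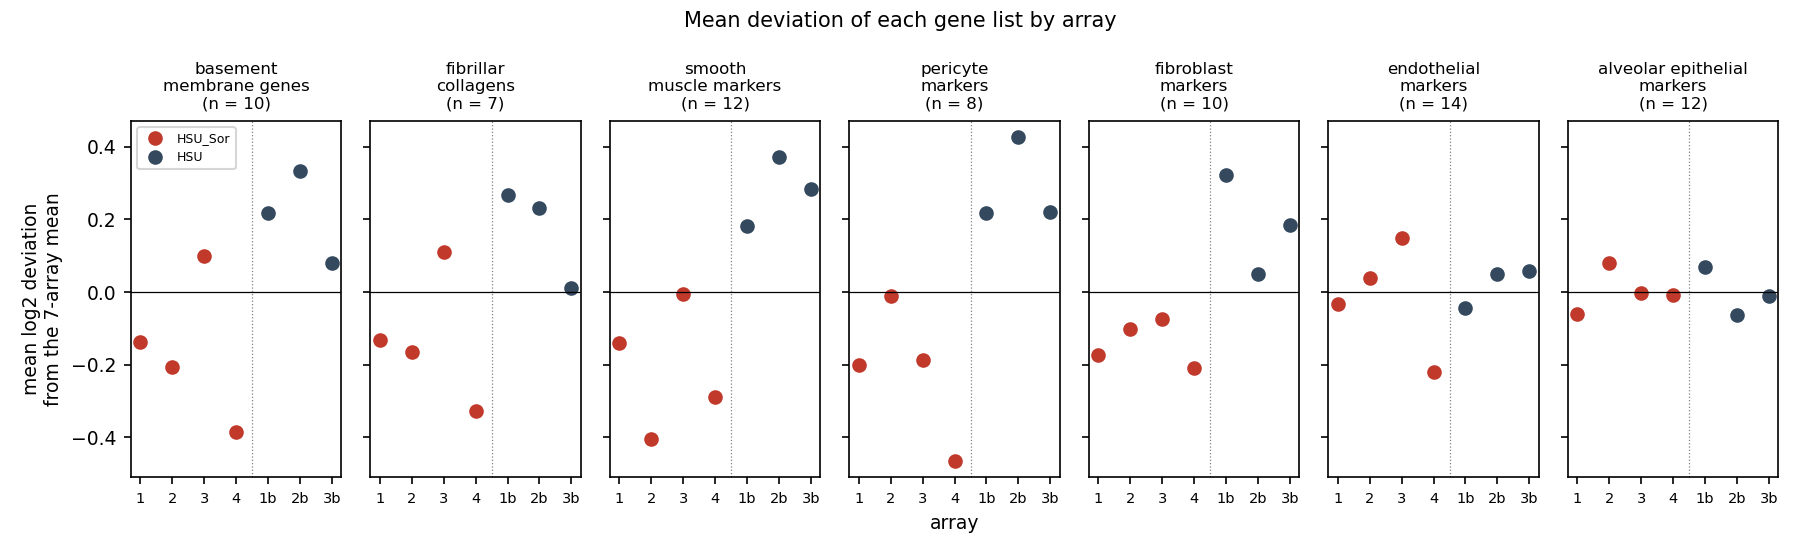
Mean deviation of each list's genes from their 7-array mean (log2, vertical axis) on each array, HSU_Sor arrays 1 to 4 left of HSU arrays 1b to 3b, with the number of genes in each panel's title. The 10 basement membrane genes are lowest on HSU_Sor 4 (-0.38), with HSU_Sor 3 (0.098) beside HSU 3b (0.079). The smooth muscle, pericyte and fibroblast markers have every HSU_Sor point below the HSU points, and the endothelial and alveolar epithelial markers overlap.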

How the data were processed

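Lung RNA was measured on 7 Affymetrix arrays, 4 HSU_Sor and 3 HSU, grouped by the sample labels. Log2 values for each probe set were deposited by the authors after normalization. The submitters' processing notes name RMA and GCRMA, without saying which one gave this table. The 57 control probe sets were left out. Gene symbols came from the platform annotation, and all 10 symbols matched RefSeq (GRCr8), which also gave the promoter windows.

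HSU_Sor minus HSU was fitted with limma (version 3.58.1, R version 4.3.3, lmFit and eBayes, two-sided, no covariate) on the 15521 probe sets with a mean above the median, with Benjamini-Hochberg adjustment over all of them and a threshold of 0.05. Counts over genes used the probe set with the highest mean (9299 genes). The fit was tested on simulated data. Arrays give no counts, so their number limits the precision.

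The 10 genes, the lists and the tests were chosen with earlier results of these data known. All 10 genes, up to 4 genes per other list by smallest unadjusted p, and the 6 nearest to Col4a1 could be named. RT1-Bb was named after its values were seen. Alternatives were other filters, normalizations, variance settings, probe set rules, a replicate block, and each array left out. Added after the data were seen were the pairs of relatives and 2 fits, one leaving out HSU 1b with 2b and one leaving out HSU_Sor 3 with 4.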

Additional observations from a re-analysis of the deposited data

Results flagged for a closer look

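Each of the 15 probe sets was checked for a value far from its neighbours within the 4 HSU_Sor arrays (the 3 HSU arrays are too few for it). The gap to the nearest array, as a share of the group's range, passed Dixon's critical value (95%) in 4 of them. About 5% would pass among independent groups of normal values, but these 15 share the same 4 arrays. The share over all probe sets was not counted, so the 4 are not an excess particular to these genes. For Lamc1 (1371322_at) HSU_Sor 3 was at 11.30 with the nearest at 10.93, a share of 0.911. For Hspg2 (1371771_at) the same array was at 6.93 with the nearest at 6.54, a share of 0.849. For Col15a1 (1379345_at) HSU_Sor 4 was at 8.29 with the nearest at 9.56, a share of 0.830. For Nid1 (1371032_at) HSU_Sor 4 was at 4.20 with the nearest at 4.27, a share of 0.876, within a range of 0.1 over all arrays.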

How the results depend on the processing

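Under the alternatives that could be run for each, 15 to 18, 13 of 15 probe sets kept their sign, and 0 of the 10 genes passed the adjusted threshold in any. The count lower at an unadjusted p below 0.05 (5) was 3 with the replicate block and 2 without HSU 1b and 2b, and ran from 3 to 6 with 1 array left out. The stricter count (3) was 1 with the block, and ran from 1 to 4 with 1 array left out. Over all genes the stricter share was 0.667% in the main fit, and it was not counted under the alternatives. Over all probe sets, 3.54% were lower at an unadjusted p below 0.05 (limma) with the block, and 2.29% to 3.94% with 1 array left out. HSU_Sor 4 has no same-numbered HSU array, so the block gave the same differences as leaving HSU_Sor 4 out. Same-numbered arrays correlated at -0.06, 0.18 and 0.14, against -0.17 to 0.24 for arrays with different numbers. These correlations do not settle whether same-numbered arrays were paired. The Lamb2 difference turned to 0.0059 with the block and 0.047 without HSU 1b and 2b, and ran from -0.13 to 0.0059 with 1 array left out, positive without HSU_Sor 2 (0.00087), HSU_Sor 4 (0.0059) or HSU 1b (0.0054). That of Hspg2 was -0.032 without HSU_Sor 3 and 4, -0.054 without HSU_Sor 3 and -0.0077 without HSU 3b, in a range from -0.054 to 0.13. The Mb difference was 0.063 without HSU 1b and 2b, and the other 39 of 40 named genes of other lists kept their sign. Of the whole table, 569 of 931 probe sets at an unadjusted p below 0.05 were lower, against 495 of 973 with quantile normalization and 391 of 751 with median centring, while the median difference stayed within 0.01 of 0. Adjusted calls over the whole table numbered 6 with the filter at the 75th percentile (Des and Actg2 among them, adjusted p 0.0441), 6 without HSU 3b and 10 without HSU 1b and 2b. The cause was not tested. Differences of dim probe sets such as 1371032_at may be compressed, so a small difference there says little.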

Other observations

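The C1q genes, whose products start the classical complement pathway and are made by macrophages, were among the lower genes. C1qc differed by -1.68 ± 0.32 (SE), C1qa by -1.70 ± 0.43 and C1qb by -2.69 ± 0.84 in HSU_Sor relative to HSU, all below the unadjusted p of 0.05 and none past the adjusted test (limma). Without HSU_Sor 3 and 4 the differences were -1.30 for C1qc, -1.07 for C1qa and -1.55 for C1qb. They were 3 of the 8 macrophage markers above the filter, and 4.18% of all genes tested were lower at an unadjusted p below 0.05. The median of that list was -0.09, and Csf1r, the receptor that macrophages depend on, differed by 0.17 ± 0.12. Without HSU 1b and 2b the median was -0.54 and 2 of the 8 were lower at an unadjusted p below 0.05. The list's summed level (log2) was 13.51 to 13.81 in HSU_Sor, against 13.56 to 14.34 in HSU.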
